A study of Mus musculus with 12 samples.

Results

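The genes described here encode the subunits, activators, inhibitor and assembly chaperones of the mouse proteasome. They were taken by symbol, as every gene named Psma to Psmg followed by a number, which gave 48 of the 45796 genes in the deposited table. Of these, 47 were above 0 in at least 1 library, among 9732 such genes in all, and 11 had a mean value high enough to be tested, among 1571. RNA was measured in gamma delta T cells carrying the Vg4 and Vd4 receptor chains, taken from lymph nodes that drain the skin of C57BL/6 mice. The 4 groups of 3 libraries were wild-type mice on sham cream, NF-kB1 deficient mice on sham cream, wild-type mice on imiquimod cream and NF-kB1 deficient mice on imiquimod cream. Imiquimod activates Toll-like receptors and inflames mouse skin when applied to it, and the NF-kB1 gene product is a DNA-binding partner in NF-kB dimers. The labels give neither the NF-kB1 allele, the age of the mice, the length of treatment, nor whether a replicate is an animal of its own. The p-values therefore reflect only how much these libraries vary, largely pooled over genes of similar mean, and that variation may be technical.

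The proteasome is the protease that degrades ubiquitin-tagged proteins. Its 20S core is a stack of alpha rings (Psma genes), which gate the entrance, around beta rings (Psmb genes), which carry the cutting sites. The 19S cap binds ubiquitin chains and, with its ring of ATPases (Psmc genes) and its non-ATPase subunits (Psmd genes), unfolds the substrate and feeds it to the core. In lymphocytes and in cells exposed to interferon, the catalytic subunits Psmb5, Psmb6 and Psmb7 are exchanged for Psmb8, Psmb9 and Psmb10 to form the immunoproteasome, which favours peptides that fit MHC class I. The 11S activator (Psme1 to Psme3) and PA200 (Psme4) can take the place of the 19S cap.

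Values are normalized read counts on the linear scale, and a gene with a value of 1 or less stands at 0. The libraries were shallow. The steps between low values imply 20524 to 69453 reads on genes per library, of which 134 to 480 lay on all 48 proteasome genes together, so 1 read was worth 0.488 to 1.98 in normalized value and single genes carry large counting error. Summed values over all genes ran from 31878 to 40618. The list of gamma delta T cell markers held receptor genes and also Cd3d, Cd3e, Cd3g, Cd247, Cd2 and Thy1, which other T cells express too. It summed to 130 to 150 in wild-type sham, 96.2 to 206 in NF-kB1 deficient sham, 81.0 to 108 in wild-type imiquimod and 154 to 174 in NF-kB1 deficient imiquimod libraries. Of that list, the receptor locus Tcrd was above 0 in every library. It was lowest in wild-type imiquimod, at 14.1, 30.5 and 19.8, against 40.3 to 76.8 in the libraries of the other groups. The symbols Trdc and Tcrg-C1 were listed at 0 throughout. B cell and neutrophil markers were listed at 0 in every library. Of 7 alpha beta T cell markers, Cd4, Trac, Trbc1 and Trbc2 were listed at 0. The other 3 (Cd8a, Cd8b1 and Tcrb) summed to 59.4 to 105 in each library, up to 0.302% of its summed value. In bulk samples, fewer cells of a type and less RNA per cell cannot be told apart.

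Promoters of the proteasome genes were searched for short elements, and stretches from the 4 alpha-ring genes that could be tested are shown because that ring holds both a gene that passed the test between groups and genes that did not. RefSeq promoter windows (GRCm38.p6, 250 bases before the start to 50 after) were given for 40 of the 48 genes, as 43 windows. Each stretch below reads 5′ to 3′ on the gene's strand, with capitals marking GGGCGG, the letters of a GC box, or CCAAT, on either strand.
Psma1 (chr7:114276125-114276184, minus strand): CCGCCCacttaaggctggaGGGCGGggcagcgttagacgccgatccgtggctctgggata
Psma2 (chr13:14613180-14613239, plus strand): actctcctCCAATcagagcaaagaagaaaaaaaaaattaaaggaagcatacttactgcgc
Psma4 (chr9:54950770-54950797, plus strand): CCGCCCCGCCCCGCCCcctcgcagtcct
Psma7 (chr2:180042484-180042511, minus strand): CCGCCCGCCCtgccCCGCCCcgccgtgc
Of the 43 proteasome windows, 24 (55.8%) held GGGCGG, against 35.7% of the 32851 windows of all genes. CCAAT stood in 14 (32.6%), against 37.4% of all. The letters TGACNNNGC, part of the element read by Nfe2l1 and related factors, stood in 6, those of Psmb5, Psmb6, Psmc6, Psmd12, Psmd9 and Psme4, against 12.4% of all. The NF-kB consensus stood in 1 (2.33%), that of Psmd12, against 4.51%. Of these letter strings, GGGCGG had the largest excess in the proteasome windows. The windows of all genes were not matched for expression or base content, and no share was tested. All 4 windows from which stretches are shown held GGGCGG, and those of Psma1, Psma2 and Psma7 also held CCAAT, so the stretches do not show every match. The stretches of Psma4 and Psma7 overlap annotated exons, and those of Psma1 and Psma2 do not. The motifs were picked with the expression values known, and a match is a description of the letters only.

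Summed over all 48 genes, the proteasome stood highest in wild-type imiquimod libraries. The sums were 182, 136 and 174 in wild-type sham replicates 1 to 3, and 187, 147 and 177 in NF-kB1 deficient sham. They were 351, 286 and 268 in wild-type imiquimod, and 241, 167 and 168 in NF-kB1 deficient imiquimod. All 3 wild-type imiquimod libraries lay above the 9 others. The group means were 164 ± 24.6, 171 ± 20.8, 301 ± 43.6 and 192 ± 42.2 in the same order (SD, n = 3 each). The wild-type sum was thus 1.84 times as high on imiquimod as on sham, while the summed value of all genes was 1.12 times as high. In the NF-kB1 deficient groups the same ratio was 1.13 and the libraries overlapped.

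Taken as a share of each library's summed value, the proteasome genes held 0.532%, 0.4003% and 0.501% in wild-type sham and 0.951%, 0.764% and 0.659% in wild-type imiquimod libraries, again without overlap. The NF-kB1 deficient shares were 0.538%, 0.462% and 0.519% on sham and 0.717%, 0.519% and 0.508% on imiquimod. Between genotypes on imiquimod the sums did not overlap, with NF-kB1 deficient at 0.637 of wild type, but the shares did, since NF-kB1 deficient replicate 1 (0.717%) lay above wild-type replicate 3 (0.659%). No p is given for a sum, since its members were chosen with earlier results known. The 11 markers of cycling cells also stood highest in wild-type imiquimod, with 1 of the 11 (Tyms) at 0 throughout. Their sums were 4.97 to 15.7 in wild-type sham and 7.75 to 37.5 in NF-kB1 deficient sham. On imiquimod they were 184, 93.2 and 299 in wild-type replicates 1 to 3 and 12.5 to 73.8 in NF-kB1 deficient libraries. Within wild-type imiquimod, replicate 3 had the highest cycling sum and the lowest proteasome sum and share. The plasma cell markers, with 4 of 5 in the table, were also above wild-type sham (0 to 3.73) in wild-type imiquimod libraries (6.81 to 9.47), and stood at 0 in NF-kB1 deficient sham and at 0 to 17.2 in NF-kB1 deficient imiquimod. At most they made up 0.0518% of a library's summed value. The part of either list in the proteasome sum was not tested.

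**Figure D1:**
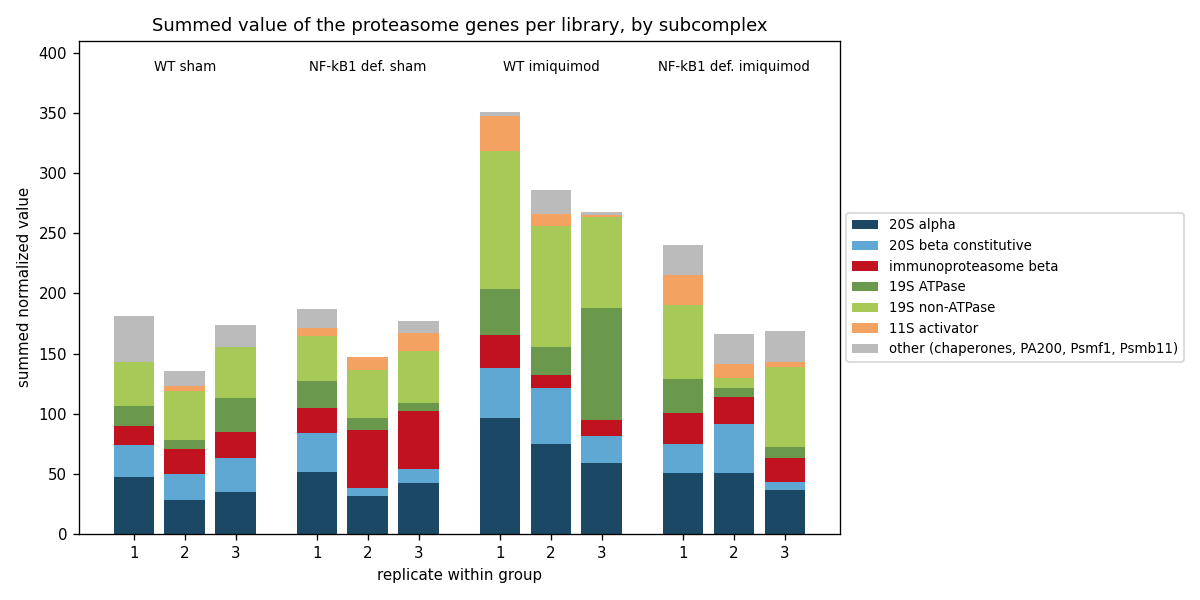
Summed normalized value of the 48 proteasome genes in each of the 12 libraries (bars, stacked by subcomplex; groups of 3 replicates along the x axis). The 3 wild-type imiquimod bars reach 268 to 351, above the other 9, and most of their added height is alpha ring and 19S cap, with little of the red immunoproteasome segment.

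The alpha ring was higher in wild-type imiquimod than in wild-type sham libraries, and the difference was carried by some of its genes and not by others. The 8 Psma genes had a mean sum of 37.1 ± 9.54 in wild-type sham, 41.9 ± 9.98 in NF-kB1 deficient sham, 77.0 ± 18.9 in wild-type imiquimod and 46.1 ± 7.86 in NF-kB1 deficient imiquimod (SD, n = 3 each). Wild type on imiquimod was thus 2.08 times wild type on sham. The wild-type imiquimod sums (59.4 to 97.0) lay above those of all other libraries (at most 51.4).

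Psma4, a structural subunit of the alpha ring (chr9:54950790-54958030, mm10, plus strand), was the member with the clearest difference. Its values were 0, 1.46 and 0 in wild-type sham, 7.72, 5.47 and 6.29 in NF-kB1 deficient sham, 19.9, 21.6 and 13.9 in wild-type imiquimod and 14.02, 6.29 and 3.89 in NF-kB1 deficient imiquimod. The wild-type sham libraries lay below the 9 others, and wild-type imiquimod overlapped with NF-kB1 deficient imiquimod only at its lowest library. With wild-type sham at about 0 to 3 reads a library, Psma4 rose in wild type by a log2 fold change of 3.83 ± 1.11 (SE; 95% interval 1.62 to 6.03) at an adjusted p of 0.0327 by limma, the size of a fold against so low a level depending on the pseudocount of 1. This was 1 member called of 11 tested, beside a background of 3.25% of all tested genes called in either direction and 1.65% called higher. The call was lost when any of 5 libraries was left out, at adjusted p values up to 0.0977 (wild-type sham 1 or 3, wild-type imiquimod 1 or 2, or NF-kB1 deficient imiquimod 1), and under 3 other settings, at up to 0.224. Between genotypes Psma4 did not pass: on sham the log2 difference of NF-kB1 deficient from wild type was 2.46 ± 1.11 (95% interval 0.26 to 4.66, adjusted p = 0.809), and on imiquimod -1.24 ± 1.11 (adjusted p = 0.654). The test of the difference between both treatment responses gave -3.70 ± 1.58 (95% interval -6.81 to -0.59, unadjusted p = 0.0202, adjusted p = 0.337).

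Psma1, another alpha-ring subunit (chr7:114264606-114276118, minus strand), was listed at 0, 3.42 and 14.3 in wild-type sham and at 11.4, 0 and 3.15 in NF-kB1 deficient sham. It stood at 31.4, 14.7 and 15.8 in wild-type imiquimod and at 8.26, 8.73 and 8.11 in NF-kB1 deficient imiquimod. The wild-type imiquimod libraries lay above those of the other 3 groups, the closest gap being 14.3 against 14.7. Psma1 did not pass the test in any comparison. Its log2 fold change on imiquimod was 2.33 ± 1.10 in wild type (SE; 95% interval 0.15 to 4.51, unadjusted p = 0.0361, adjusted p = 0.203 by limma). In NF-kB1 deficient cells it was 1.33 ± 1.10 (adjusted p = 0.996). Psma7 (chr2:180036374-180042433, minus strand) was at 0, 7.02 and 0 in wild-type sham and 1.57, 23.7 and 11.9 in wild-type imiquimod, with NF-kB1 deficient libraries between 0 and 6.99. Here the groups overlapped, through the low first replicate.

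Psma2, the most highly counted proteasome gene (about 267 reads over the 12 libraries; chr13:14613240-14674236, plus strand), was above 0 in every library and did not separate the groups. It stood at 29.1, 14.2 and 9.94 in wild-type sham, 17.3, 18.6 and 26.5 in NF-kB1 deficient sham, 44.0, 13.7 and 17.8 in wild-type imiquimod and 19.1, 21.0 and 6.49 in NF-kB1 deficient imiquimod. Only 1 wild-type imiquimod library stood apart. The remaining ring genes were too low to test and did not share the height of Psma4 in wild-type imiquimod libraries. Psma3 and Psma6 were at 0 in all 3 of them, with highest values of 4.97 and 6.71 in the other libraries. Psma5 was at 0, 1.05 and 0 there, against 4.32, 1.44 and 1.76 in NF-kB1 deficient imiquimod and up to 10.5 on sham. Psma8, the alpha subunit of the testis proteasome, was at 0 in all 12 libraries.

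**Figure D2:**
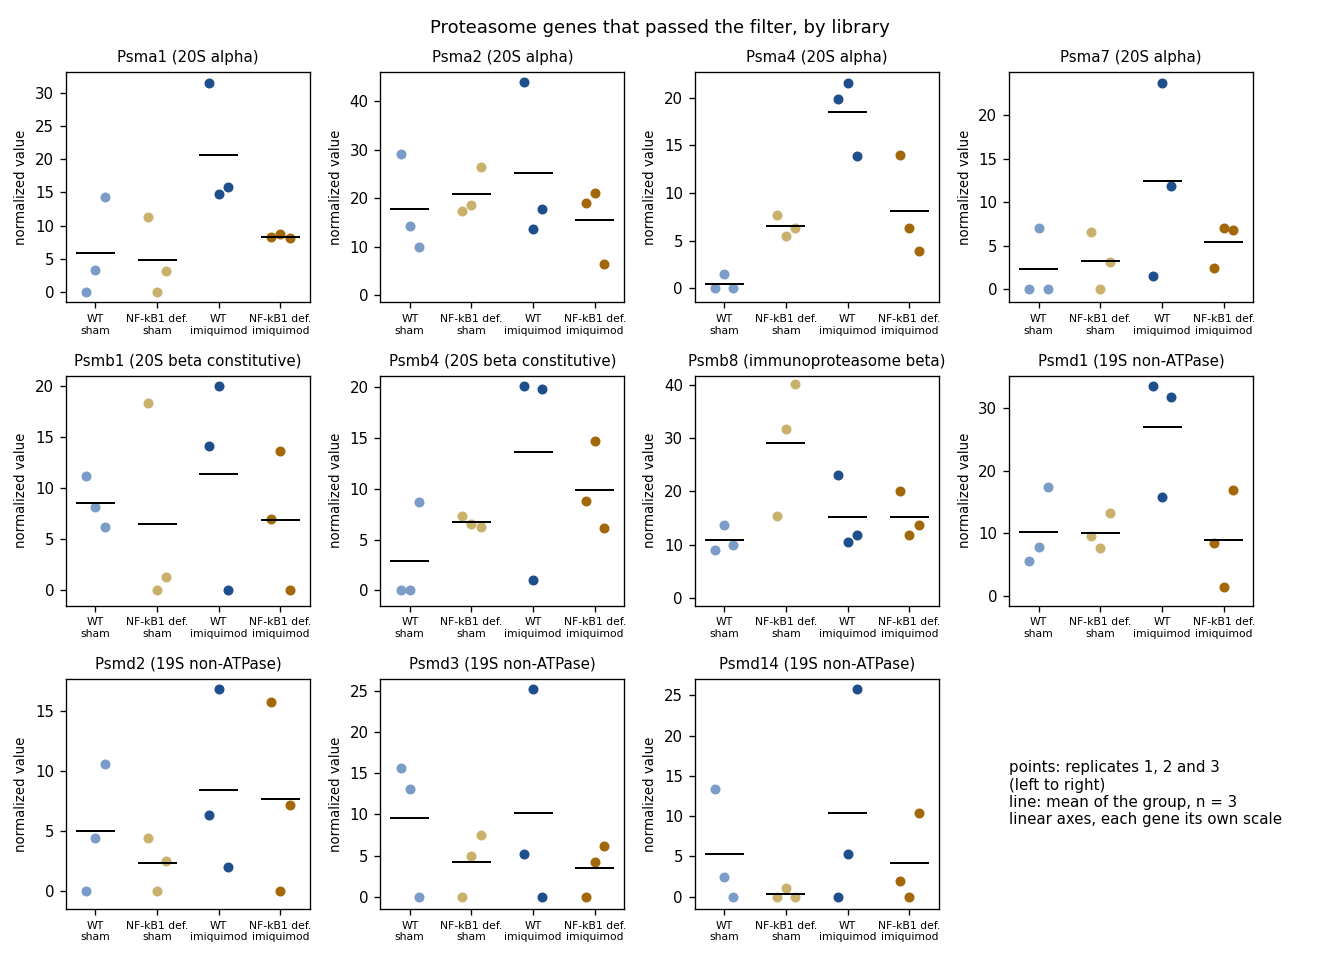
Normalized value (linear y axes, each gene on its own scale) of the 11 tested proteasome genes in each library, as points for the 3 replicates of each group with a line at the group mean. Psma1 and Psma4 have their 3 wild-type imiquimod points above all wild-type sham points, while Psmb8 has its 3 NF-kB1 deficient sham points above those of wild-type sham.

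The constitutive beta ring showed no such separation. Psmb1 to Psmb7 summed to 25.5 in wild-type sham, 17.0 in NF-kB1 deficient sham, 36.8 in wild-type imiquimod and 24.0 in NF-kB1 deficient imiquimod. Psmb4, a non-catalytic subunit, was at 0, 0 and 8.69 in wild-type sham, 7.35, 6.57 and 6.29 in NF-kB1 deficient sham, 20.1, 1.05 and 19.8 in wild-type imiquimod and 8.76, 14.7 and 6.16 in NF-kB1 deficient imiquimod. The second wild-type imiquimod library alone made those groups overlap. Psmb1, also non-catalytic, ranged from 0 to 18.3 on sham and from 0 to 20.001 on imiquimod, with a library at 0 in 3 of the 4 groups. The catalytic subunits Psmb5, Psmb6 and Psmb7 were above 0 in 3, 7 and 5 of the 12 libraries and reached 13.04, 13.4 and 8.42. Psmb5 was above 0 in 3 libraries, all wild type, at 1.46 and 13.04 on sham and 2.89 on imiquimod. Psmb2 and Psmb3 did not exceed 8.42.

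The summed immunoproteasome subunits had their highest mean in NF-kB1 deficient sham libraries. Psmb8, Psmb9 and Psmb10 together stood at 15.8, 20.5 and 21.7 in wild-type sham, 20.2, 48.6 and 48.6 in NF-kB1 deficient sham, 26.7, 10.5 and 13.9 in wild-type imiquimod and 25.4, 22.4 and 20.4 in NF-kB1 deficient imiquimod. The ratio of NF-kB1 deficient to wild type on sham was 2.03, from replicates 2 and 3, since replicate 1 overlapped with wild type. In wild type the imiquimod to sham ratio was 0.882, where the sum of all members had 1.84. They were not alone in this: the catalytic subunits they replace (Psmb5, Psmb6 and Psmb7) had sums of 13.4, 7.81 and 13.04 in wild-type sham libraries and 7.16, 13.4 and 1.98 in wild-type imiquimod, and the ratio was 0.377 for the chaperones of the core. Immunoproteasome subunits accordingly made up 11.8% of the proteasome sum in wild-type sham, 22.96% in NF-kB1 deficient sham, 5.65% in wild-type imiquimod and 11.9% in NF-kB1 deficient imiquimod.

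Psmb8, the chymotrypsin-like subunit of the immunoproteasome (chr17:34197721-34201454, plus strand), supplied most of that sum. It was at 8.94, 13.7 and 9.94 in wild-type sham, 15.4, 31.8 and 40.2 in NF-kB1 deficient sham, 23.1, 10.5 and 11.9 in wild-type imiquimod and 20.03, 11.9 and 13.6 in NF-kB1 deficient imiquimod. The sham groups did not overlap, and both imiquimod groups had means of 15.2. The sham difference did not pass the test (log2 difference 1.27 ± 0.74, 95% interval -0.20 to 2.73, unadjusted p = 0.0894, adjusted p = 0.914 by limma), beside a background of 0.0% of tested genes called in that comparison. Within NF-kB1 deficient cells the log2 fold change on imiquimod was -0.83 ± 0.74 (95% interval -2.29 to 0.63, adjusted p = 0.996).

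Psmb9 and Psmb10 were too low to test. Psmb9, whose gene overlaps Tap1 on the other strand (listed at 1.95 to 12.96, the counting not being stated to use strand), was at 5.73, 1.91 and 9.27 in wild-type sham and 3.67, 0 and 0 in wild-type imiquimod, and between 1.56 and 6.45 in the 6 NF-kB1 deficient libraries. Psmb10 was at 1.12, 4.88 and 2.48 in wild-type sham and 0, 0 and 1.98 in wild-type imiquimod, with its highest value of 15.3 in NF-kB1 deficient sham replicate 2. Without Psmb8 the NF-kB1 deficient to wild-type log2 ratio of the immunoproteasome sum on sham was 0.24, against 1.02 with it, so the sham difference rests on Psmb8. Among the 6 catalytic subunits, the immunoproteasome forms held 54.1%, 72.4% and 62.5% of the summed value in wild-type sham and 82.1%, 100% and 95.1% in NF-kB1 deficient sham, without overlap. On imiquimod they held 78.9%, 44.0% and 87.5% in wild type and 82.3%, 71.2% and 100% in NF-kB1 deficient libraries, with overlap. These shares rest on about 8 to 62 reads a library, and the 100% values mean only that Psmb5, Psmb6 and Psmb7 were listed at 0. Psmb11, the thymoproteasome subunit of the thymic cortex, was above 0 in 2 libraries, at 4.41 and 1.05.

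**Figure D3:**
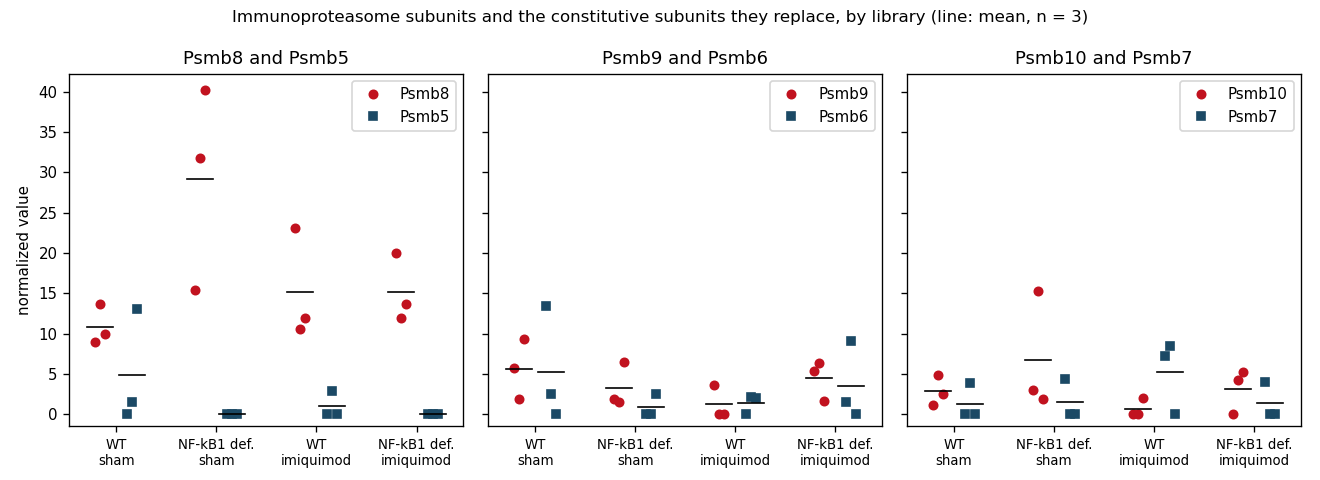
Normalized value (linear y axis) of each immunoproteasome subunit (red circles) and a constitutive catalytic subunit (blue squares) in the 3 libraries of each group, with lines at the group means. Psmb8 stays above Psmb5 in all groups' means and is highest in NF-kB1 deficient sham, while Psmb9, Psmb10 and their partners stay at 15.3 or below.

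The ATPases of the 19S cap had their highest mean sum in wild-type imiquimod libraries, but the groups overlapped. The 6 Psmc genes summed to 17.3 in wild-type sham, 12.98 in NF-kB1 deficient sham, 51.6 ± 36.9 (SD, n = 3) in wild-type imiquimod and 14.8 in NF-kB1 deficient imiquimod. The replicates were at 16.8, 7.32 and 27.9 in wild-type sham, 22.8, 9.85 and 6.29 in NF-kB1 deficient sham, 38.8, 22.9 and 93.2 in wild-type imiquimod and 28.4, 6.89 and 9.08 in NF-kB1 deficient imiquimod. Wild-type imiquimod replicate 2 thus lay below 1 library of wild-type sham and 1 of NF-kB1 deficient imiquimod. Without wild-type imiquimod replicate 3 the log2 ratio to wild-type sham was 0.83, against 1.57 with it. Psmc3 was at 0, 2.44 and 0 in wild-type sham and 8.38, 11.3 and 21.8 in wild-type imiquimod. It reached 4.41 in NF-kB1 deficient sham and 6.49 in NF-kB1 deficient imiquimod, below every wild-type imiquimod library. Psmc1 was at 0, 0 and 4.97 in wild-type sham and 12.6, 5.26 and 20.9 in wild-type imiquimod, and at 4.51, 0 and 0 in NF-kB1 deficient imiquimod. Psmc2 was at 6.29, 0 and 41.6 in wild-type imiquimod, so 1 library held nearly all of it. Psmc4, Psmc5 and Psmc6 stayed between 0 and 13.04 with overlapping groups. None of the 6 ATPase genes reached the mean of 5 needed for the test.

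The non-ATPase subunits of the cap, like the alpha ring, had higher sums in wild-type imiquimod libraries. The sums of their 11 genes were 36.3, 40.7 and 42.2 in wild-type sham libraries and 37.5, 39.7 and 42.8 in NF-kB1 deficient sham libraries, the spread within each group being small. On imiquimod they summed to 114, 100.5 and 75.3 in wild type and to 61.3, 9.08 and 65.8 in NF-kB1 deficient libraries. All 3 wild-type imiquimod libraries lay above the rest, at a mean 2.43 times that of wild-type sham, while NF-kB1 deficient replicate 2 was the lowest of the 12.

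Psmd1, the large scaffold subunit of the cap's base (chr1:86064387-86139151, plus strand), was above 0 in every library. It was at 5.59, 7.81 and 17.4 in wild-type sham, 9.56, 7.66 and 13.2 in NF-kB1 deficient sham, 33.5, 15.8 and 31.7 in wild-type imiquimod and 8.51, 1.40 and 16.9 in NF-kB1 deficient imiquimod. The imiquimod groups overlapped only between 15.8 and 16.9. Psmd1 had the lowest unadjusted p of the members between genotypes on imiquimod, with a log2 difference of NF-kB1 deficient from wild type of -1.85 ± 0.90 (95% interval -3.62 to -0.07, unadjusted p = 0.0419). It did not pass (adjusted p = 0.320 by limma), beside a background of 1.78% of tested genes called. The test of the difference between both treatment responses gave -1.94 ± 1.27 for Psmd1 (adjusted p = 0.607).

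Psmd6, a lid subunit too low to test, was at 0, 0 and 0 in wild-type sham, 5.88, 5.47 and 1.26 in NF-kB1 deficient sham, 1.05, 12.6 and 15.8 in wild-type imiquimod and 3.75, 3.49 and 0 in NF-kB1 deficient imiquimod. Psmd13, another lid subunit, was at 0 in all 6 sham libraries and at 21.5, 9.47 and 0 in wild-type imiquimod. Psmd12, also of the lid, was at 24.1, 5.26 and 0 in wild-type imiquimod, and at 0, 1.46 and 0 in wild-type sham, but NF-kB1 deficient sham libraries, at 2.94, 5.47 and 11.3, overlapped with it. In these lid genes the wild-type imiquimod height came from 2 of 3 libraries each time, and the remaining library lay near or at 0. Psmd2, a base subunit that shuttle factors dock on, ranged from 0 to 16.8 with overlapping groups. Psmd3 ranged from 0 to 25.3 and Psmd14, the deubiquitinase of the lid, from 0 to 25.7, each with the highest value in 1 wild-type imiquimod library and 0 in another. Psmd4, Psmd7, Psmd8 and Psmd11 did not exceed 9.27.

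The activators and assembly factors were low. Psme1 to Psme3, the 11S subunits, had sums of 0, 4.72 and 0 in wild-type sham, 6.25, 10.9 and 15.1 in NF-kB1 deficient sham, 29.3, 10.5 and 1.98 in wild-type imiquimod and 24.5, 11.2 and 4.54 in NF-kB1 deficient imiquimod. Wild-type imiquimod overlapped with every other group, and its log2 ratio to wild-type sham was 3.15, or 1.99 without wild-type imiquimod replicate 1. Psme1, which interferon is known to induce, was at 0, 2.76 and 0 in wild-type sham, 6.25, 0 and 5.03 in NF-kB1 deficient sham, 11.5, 0 and 0 in wild-type imiquimod and 14.02, 5.59 and 4.54 in NF-kB1 deficient imiquimod. Psme2 reached 10.1, but a near-identical copy, Psme2b, was listed at up to 13.8, so reads may be split between both and Psme2 is uncertain. Psme3, the nuclear activator, was at 16.7, 10.5 and 0 in wild-type imiquimod and above 0 in 2 other libraries. Psme4 was at 0 in all 3 wild-type imiquimod libraries, against 2.50, 1.33 and 9.08 in NF-kB1 deficient imiquimod and up to 12.3 on sham. Psmf1, the inhibitor, reached 14.7 in NF-kB1 deficient imiquimod replicate 2. Of the chaperones that assemble the core, Psmg2 reached 18.6 in wild-type sham, and Psmg1, Psmg3 and Psmg4 stayed at 6.32 or below. The chaperones of the cap, Psmd5, Psmd9 and Psmd10, stayed at 8.42 or below.

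Counted over the 47 genes above 0, the wild-type imiquimod mean was higher than that of wild-type sham in 29 and lower in 16, where 39.3% of all genes above 0 were higher and 41.3% lower. The 3 wild-type imiquimod libraries all lay above the 3 wild-type sham libraries in 5 genes (Psma1, Psma4, Psmc1, Psmc3 and Psmd6), against 2.61% of all genes above 0. None lay below, against 3.58% of all genes above 0. Most genes above 0 were too low to test, and among the 1571 tested genes the shares were 10.7% above and 10.8% below. In NF-kB1 deficient cells 1 gene (Psmd10) was without overlap and higher on imiquimod and 0 lower, against 3.0% and 1.62% of all genes above 0 (6.11% and 5.6% of tested genes). There 28 means were higher and 18 lower, against 46.5% and 40.4%. On sham, 4 genes (Psma4, Psmb8, Psmd6 and Psmd12) were without overlap higher in NF-kB1 deficient libraries and 0 lower, against 1.56% and 1.95% (4.71% and 4.65% of tested genes). There 18 means were higher and 25 lower, against 41.8% and 40.8%. On imiquimod, 3 genes (Psma1, Psmc1 and Psmc3) were without overlap lower in NF-kB1 deficient libraries, against 2.44%, and 3 (Psma5, Psmd10 and Psme4) higher, against 4.27% (10.3% and 10.8% of tested genes). There 22 means were higher and 25 lower, against 46.0% and 37.9%. The comparisons share groups, so these counts are not independent of each other. Libraries also differ in depth and in the reads needed to stand above 0, for which these counts were not corrected.

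In the test of single genes, Psma4 in wild type was the one call among the members in any comparison. No member was called between imiquimod and sham in NF-kB1 deficient cells, where limma called 0.0% of all tested genes and 53 (3.37%) had an unadjusted p under 0.05, none of them a member. Between genotypes on sham it also called no gene, with 96 (6.11%) at an unadjusted p under 0.05, of which 1 was a member (Psma4). In wild type on imiquimod 2 members had an unadjusted p under 0.05 (Psma1 and Psma4), against 19.9% of tested genes, and between genotypes on imiquimod 1 (Psmd1), against 14.3%. The difference between both responses was called in 0.446% of tested genes and in no member, with 1 member (Psma4) at an unadjusted p under 0.05, against 10.8%. The standard errors of the tested members ran from 0.697 to 1.48 on the log2 scale in the comparisons of 2 groups, so an interval of a single gene spans several log2 units and a difference that did not pass is not shown to be absent. They come mostly from the spread of genes with a similar mean and little from the gene's own replicates. The median prior weighed 145 degrees of freedom, beside 8 residual.

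**Figure D4:**
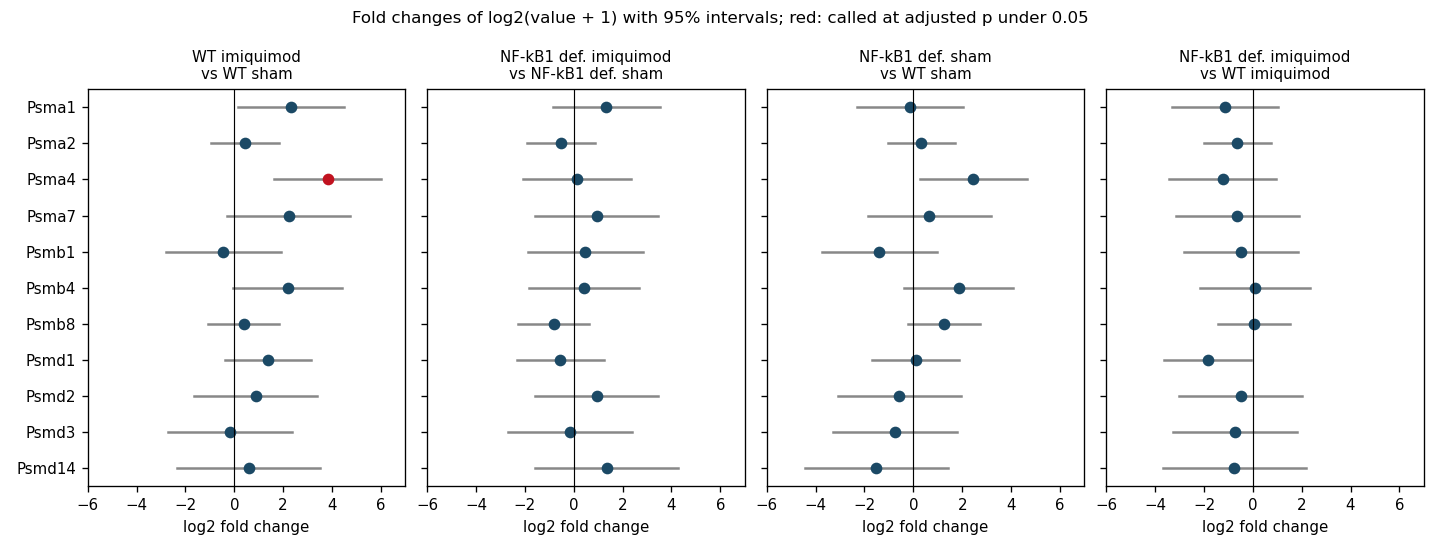
Log2 fold change of log2(value + 1) for the 11 tested proteasome genes in the 4 comparisons of 2 groups (points), with 95% intervals (lines) and red for an adjusted p under 0.05. Psma4 in wild type at 3.83 is the single red point, and most intervals in the other panels cross 0.

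Genes that work with the proteasome were followed from lists of names. Of 16 proteasome cofactors outside the symbol rule, 12 were above 0 and 2 were tested, with 0 called in any comparison. Pomp, the chaperone that matures the core, was at 39.1, 22.5 and 16.1 in wild-type sham, 44.1, 27.4 and 22.7 in NF-kB1 deficient sham, 37.7, 30.5 and 29.7 in wild-type imiquimod and 18.5, 11.2 and 22.1 in NF-kB1 deficient imiquimod. The genotypes did not overlap on imiquimod, and the log2 difference was -0.92 ± 0.58 (adjusted p = 0.495 by limma). Sem1, a small subunit of the lid, was at 12.3, 8.54 and 10.56 in wild-type sham and at 3.14, 31.1 and 64.4 in wild-type imiquimod, a log2 fold change of 0.86 ± 0.85 (adjusted p = 0.611). Nfe2l1, the factor known to restore proteasome transcription, was at 0 in 11 libraries and at 4.86 in NF-kB1 deficient imiquimod replicate 3.

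Of 26 genes for ubiquitin and its transfer, 24 were above 0 and 10 were tested, with 0 called in any comparison. Uba1, the ubiquitin-activating enzyme, came closest, in wild type on imiquimod, where its log2 fold change was 2.23 ± 0.82 (adjusted p = 0.103). The genes that supply peptides to MHC class I, which work downstream of the proteasome, were followed last. Of 17 listed, 13 were tested. Between imiquimod and sham in wild type, 2 were called, beside 3.25% of all tested genes; 1 was called without the filter and 1 without trend and robust, and 4 without wild-type imiquimod replicate 2. Calr, a chaperone of class I loading, was at 0, 0 and 0 in wild-type sham and at 43.5, 28.6 and 21.8 in wild-type imiquimod (adjusted p = 0.00284), with NF-kB1 deficient libraries between 0 and 15.4. H2-K1, a class I heavy chain, was at 143, 150 and 108 in wild-type sham and at 48.2, 80.9 and 37.0 in wild-type imiquimod, and fell by 1.32 ± 0.31 on the log2 scale (adjusted p = 0.00338). Between genotypes on imiquimod, where 1.78% of tested genes were called, the calls described here were higher in NF-kB1 deficient cells. H2-K1, at 184, 159 and 163 there, was higher by 1.66 ± 0.31 (adjusted p = 0.000136). B2m, the class I light chain, was higher by 1.16 ± 0.29 (adjusted p = 0.0152) and H2-Q7, another class I heavy chain, by 1.81 ± 0.53 (adjusted p = 0.0486). Calls in this list fell to 0 without trend and robust. They fell to 1 without the filter, and to 1 without NF-kB1 deficient imiquimod replicate 1 or 2. Their number was unchanged with equal totals or with the replicate number as a block. No gene of the list was called in the NF-kB1 deficient response or between genotypes on sham. In the comparison of genotypes on imiquimod, Psmb8, whose product cuts the peptides, had equal group means of 15.2. The other immunoproteasome subunits, too low to test, had higher means in NF-kB1 deficient than in wild-type libraries. These were 4.45 against 1.22 for Psmb9 and 3.13 against 0.660 for Psmb10.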

How the data were processed

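The values are log2 normalized read counts per gene, as deposited by the authors. The library kit, per the labels' protocols, was QuantSeq 3' mRNA-Seq (FWD), which reads near the 3' end, so values do not scale with transcript length. Per the submitters' processing notes the genome build was mm10. Which aligner, counter and normalization were used is not given in the sources used here. Coordinates are those of the GENCODE M21 annotation on GRCm38.

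Values were taken back to the linear scale, with log2 values of 0 or less set to 0. Genes with a mean of at least 5 over the 12 libraries were tested as log2(value + 1) with limma 3.58.1 (R 4.3.3), all groups in 1 fit, eBayes with trend and robust, and Benjamini-Hochberg adjustment over all 1571 genes; calls are at an adjusted p under 0.05. The fit was tested on simulated data. Of values under 20 reads, 71.3% to 80.3% were within 0.01 of whole reads, too few for a count test. Sums are of linear values. Members, lists and the rule for naming them (every tested member, and others by subcomplex) were chosen with earlier results of these data known. Libraries were fitted as unpaired, since the labels do not say whether replicate numbers pair them. Alternatives changed the pseudocount, filter, scaling, samples fitted, variance model, block and single libraries. One gene of the lists is not reported here.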

Additional observations from a re-analysis of the deposited data

How the results depend on the processing

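The single call among the members, Psma4 in wild type on imiquimod, was kept in 11 of 19 alternatives, with log2 fold changes of 1.43 to 6.19 and adjusted p values of 0.0278 to 0.224. Members called numbered 0 instead of 1 with a pseudocount of 0.1 (adjusted p = 0.0696), without the filter (0.224) and with only the compared groups fitted (0.117), and 0 to 1 when single libraries were left out. With the replicate number as a block, Psma4 was still called (adjusted p = 0.0286 by limma), and 0 members were called in the other comparisons. The deviations of tested genes from their group means were correlated between libraries of different groups. These correlations were -0.00983 to 0.0609 with the same number and -0.0638 to 0.0372 with different numbers. At this depth such values cannot decide whether the numbers pair libraries. With a mean of at least 20 required, no member was tested. Summed over tested members only, the log2 ratio for all members was 1.13 in wild type on imiquimod (0.88 over all members) and 0.27 between genotypes on sham (0.06). The filter used all 12 libraries, so members high in wild-type imiquimod, such as Psma7, Psmd2 and Psmd14, passed through that group and low ones, such as Psma5, did not; ratios over tested members reflect that choice and support nothing. Tested members only also gave, on imiquimod against sham in wild type, 1.54 for the alpha ring (1.05 over all), 1.14 for the constitutive beta ring (0.53), 0.48 for the immunoproteasome (-0.18) and 0.89 for the 19S non-ATPases (1.28). Between genotypes on sham they gave 0.22 for the constitutive beta ring (-0.59) and -0.83 for the 19S non-ATPases (0.01). Without Psma2, the alpha ring gave 1.42 in wild type and 0.54 (0.14) in NF-kB1 deficient cells on imiquimod. Without Psmb8, the immunoproteasome gave -2.17 in wild type on imiquimod, 0.24 between genotypes on sham (1.02) and 2.01 between genotypes on imiquimod (0.42). Leaving out single libraries gave -1.51 to -0.20 for the constitutive beta ring between genotypes on sham and 0.16 to 0.90 for the immunoproteasome between genotypes on imiquimod. The log2 ratio of the summed members in wild type stayed between 0.76 and 0.96 without any single library, and that between genotypes on imiquimod between -0.85 and -0.53. Causes were not tested. Depth limits single genes: 37 members were below the filter, and 20 were above 0 in 1 to 5 libraries.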
